A study of Mus musculus with 9 samples.

Results

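The genes followed here are 10 genes of T cells and NK cells, measured in 9 bulk RNA-seq libraries of mouse fracture callus. They were the rows of the expression table whose symbol was Cd3e, Cd3d, Cd3g, Cd4, Cd8a, Trbc2, Lck, Gzma, Gzmb or Nkg7, 10 of the 22054 genes listed, and all 10 were found and passed the filter on low counts in every comparison. The mice were wild-type male C57BL/6J animals aged 7 weeks, whose left femur was cut at midshaft and pinned through the marrow cavity. From the day after surgery and for a week each mouse was injected daily into the peritoneum with 200 µl of H-151 solution (750 nmol, an inhibitor of the DNA-sensing adaptor STING), of SR-717 solution (30 mg per kg, a STING agonist) or of PBS, with 3 libraries per group, and callus RNA was sequenced. The solvent of both drugs, and whether a library held 1 animal or several, are not given in the sources used here, so p-values measure the spread between these libraries only. The labels name the tissue bone.

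T cells recognise antigen through a receptor whose variable chains carry no signaling part of their own. The CD3 subunits carry the signal into the cell, and the kinase Lck, held by the coreceptors CD4 and CD8, starts it. Cytotoxic T cells and NK cells kill through granules in which perforin opens the way for granzymes. In a fracture, lymphocytes enter the callus with the early inflammation, together with far larger numbers of myeloid cells, before cartilage is replaced by bone. In bulk RNA, fewer cells of a type and less RNA per cell cannot be told apart.

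The libraries held 18545304 to 19758538 reads assigned to genes after H-151, 16987398 to 23272480 after PBS and 17157465 to 21573834 after SR-717. The members were sparse at this depth. Cd3e was counted at 8 to 86 reads per library, Cd8a at 5 to 55 and Nkg7, the deepest together with Cd4, at 41 to 385. One library stood apart from the rest before any comparison was made. On the first principal component of all genes, which held 46.5% of the variance, SR-717 replicate 1 lay at 100, PBS replicate 1 at 39, and the other libraries between -28.7 and -3.87. The comparisons that use SR-717 replicate 1 are therefore given with and without it. Bone markers were high in all 9 libraries, with a summed level of 22166 to 44357 CPM (reads scaled to a common library total after TMM normalization). Most of that sum was Col1a1, at 20945 to 40966 CPM. In SR-717 replicate 1 Col1a1, Bglap, Ibsp, Sp7 and Alpl were the lowest of the 9 libraries, and Runx2 was not.

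The 3 CD3 genes lie side by side on chromosome 9 of mm10. Cd3g (chr9:44969572-44980431, minus strand) and Cd3d (chr9:44981786-44987339, plus strand) are divided head to head by 1354 bases, and Cd3e (chr9:44998740-45009627, minus strand) follows 11400 bases further on. Cd4 (chr6:124864692-124888221, minus strand), Cd8a (chr6:71373427-71379173, plus strand) and Trbc2 (chr6:41546730-41548352, plus strand) are on chromosome 6. Lck is at chr4:129548344-129573641 (minus strand), Gzma at chr13:113093825-113100981 (minus strand), Gzmb at chr14:56258838-56262260 (minus strand) and Nkg7 at chr7:43437073-43438249 (plus strand). Each position is the gene body, exons and introns together, in the GENCODE M21 annotation. Trbc2 has a near-identical neighbour, Trbc1, and its deposited counts were partly fractional, so its reads are uncertain between the copies.

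RefSeq start sites (GRCm38.p6) were matched for 8 of the 10 members, with 9 start sites in all. The 250 bases upstream are shown for the head-to-head pair Cd3g and Cd3d and for Gzma, since their messenger levels are followed together below and Gzma was the only one of these 8 with an interferon-response pattern. Capitals mark matches, on either strand, to 5 short patterns, each spelled out with its result: the core of an interferon-stimulated response element, the site of STAT dimers, the RUNX core, the AP-1 site and the GATA site.
Cd3g, chr9:44980432-44980681, minus strand: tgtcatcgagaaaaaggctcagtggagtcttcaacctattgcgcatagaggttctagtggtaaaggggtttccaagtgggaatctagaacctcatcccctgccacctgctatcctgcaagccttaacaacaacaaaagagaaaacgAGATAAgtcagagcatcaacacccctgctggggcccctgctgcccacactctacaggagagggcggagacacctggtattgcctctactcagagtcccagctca
Cd3d, chr9:44981536-44981785, plus strand: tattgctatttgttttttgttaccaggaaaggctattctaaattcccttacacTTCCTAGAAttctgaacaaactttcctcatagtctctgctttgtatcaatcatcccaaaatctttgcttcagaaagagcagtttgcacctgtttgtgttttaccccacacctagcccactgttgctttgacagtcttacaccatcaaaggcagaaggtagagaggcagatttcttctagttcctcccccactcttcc
Gzma, chr13:113100982-113101231, minus strand: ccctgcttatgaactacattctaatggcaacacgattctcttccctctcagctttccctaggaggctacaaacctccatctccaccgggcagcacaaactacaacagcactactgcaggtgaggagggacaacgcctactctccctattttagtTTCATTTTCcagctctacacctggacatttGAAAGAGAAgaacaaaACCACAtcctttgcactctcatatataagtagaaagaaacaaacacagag
No matches of different patterns overlapped. The Cd3g window held the GATA pattern AGATAA at bases -104 to -99 from the start site, and 9.99% of the 32851 promoters in the RefSeq table hold that pattern in the same 250 bases. The Cd3d window held the STAT pattern TTCNNNGAA at -197 to -189, a pattern in 7.02% of promoters. Of the 9 member start sites 2 held it, the other being that of Nkg7 (-220 to -212). Gzma held the interferon-response pattern GAAANNGAA at -96 to -88 and again at -66 to -58, a pattern in 7.13% of promoters, and the RUNX core at -50 to -45. That core, TGTGGT, was matched at 4 of the 9 member start sites, those of Lck, Nkg7, Gzma and Gzmb, and in 14.0% of all promoters. The AP-1 pattern TGANTCA was found in 1 of the 9, at Gzmb, and in 6.75% of all promoters. The bases that follow the Gzmb start site were not found in a GENCODE transcript of that gene, so its window is less certain. A match is a description of letters and was not tied to binding here.

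To compare the members with each other, the deposited TPM values (a transcript abundance scaled for gene length) were used. In the PBS group Nkg7, a membrane protein of cytotoxic granules, had the highest TPM, 11.5 ± 6.55 (SD, n = 3), followed by Cd4 at 6.60 ± 2.41. Gzma came next at 5.07 ± 1.42, level with Trbc2, a constant segment of the T cell receptor beta chain, at 5.07 ± 2.40. Lck stood at 3.06 ± 0.531 TPM and Gzmb at 2.54 ± 2.79. Cd3g at 1.59 ± 0.689 TPM, Cd3d at 1.01 ± 0.437 and Cd3e at 0.957 ± 0.292 were lower, and Cd8a was lowest at 0.339 ± 0.0535. Among neighbours in this order, only Cd3e and Cd8a had ranges that did not overlap in the PBS group, 0.685 to 1.27 TPM against 0.282 to 0.388. In the H-151 group Nkg7 was again highest at 17.6 ± 9.94 TPM and Cd8a lowest at 0.311 ± 0.157. The neighbours Gzma and Trbc2, Lck and Gzmb, and Cd3e and Cd8a had separate ranges there. In the SR-717 group Nkg7 (23.8 ± 13.7 TPM) led Gzma (12.1 ± 9.94) and Cd8a was lowest at 0.852 ± 0.670, and no neighbours in the order had separate ranges.

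Cd4 exceeded the CD3 genes by far per length. CD4 is the coreceptor of helper T cells, and in the mouse some dendritic cells also carry it. The TPM of Cd4 was 5.88 to 9.45 times that of Cd3e in 8 libraries and 1.99 times in SR-717 replicate 1. The TPM of Cd4 over that of Cd8a ranged from 6.48 in SR-717 replicate 1 to 28.2 in SR-717 replicate 3. The share of T cells in the Cd4 signal was not tested.

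The main pattern in these genes was carried by 1 library. SR-717 replicate 1 had the highest CPM of the 9 libraries for all 10 members, whereas 25.9% of the 14294 genes tested over the 9 libraries were highest there. Its level was 1.76-fold (Cd4) to 9.63-fold (Gzmb) that of the median of the other 8 libraries, with a median over the members of 4.54. Of the members, 9 were at least 2-fold above that median, the exception being Cd4, against 13.9% of all genes. The plots of CPM by group show the same library as the top point in each panel.

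**Figure D1:**
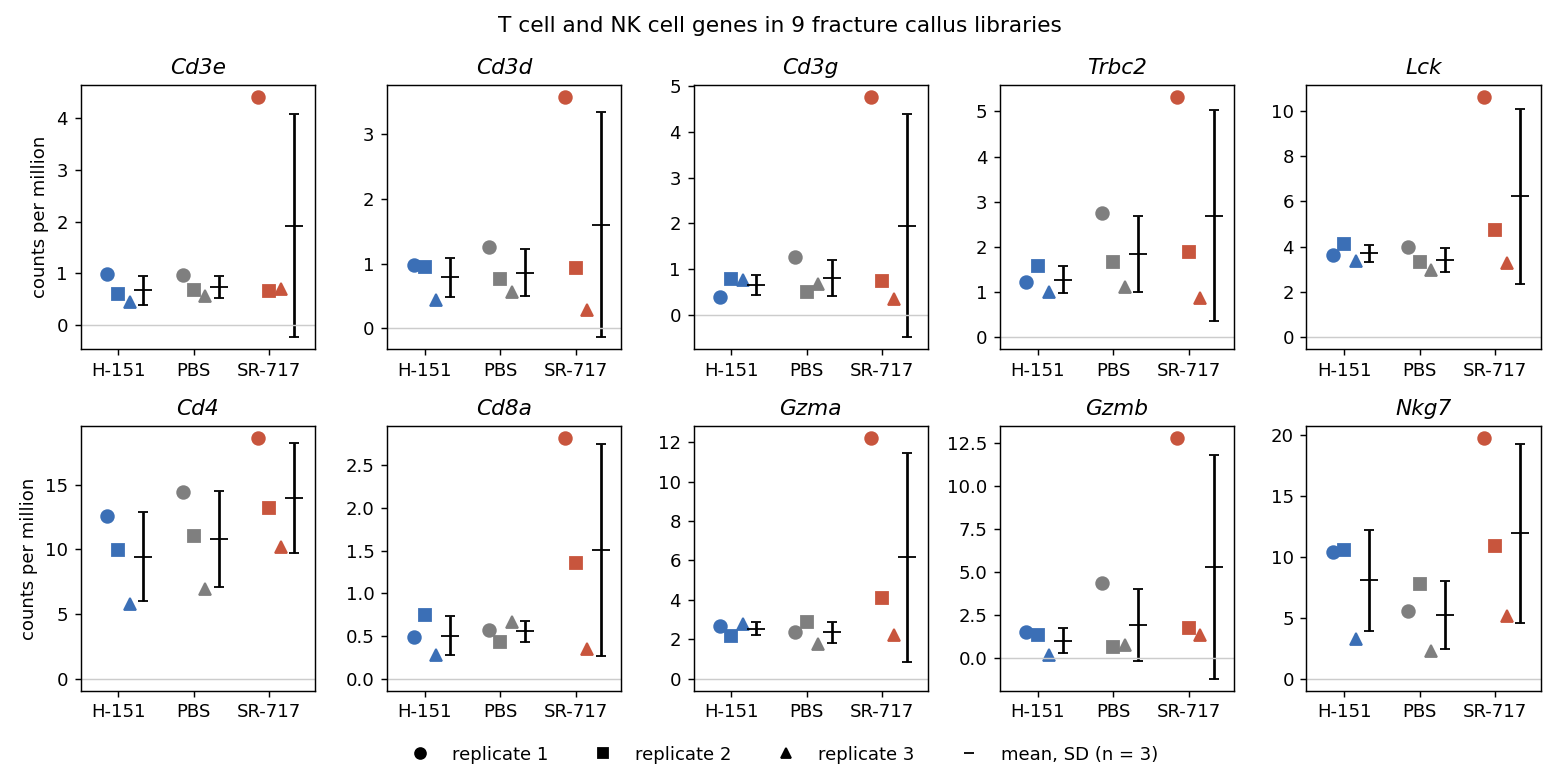
CPM of the 10 T cell and NK cell genes in each library (points, shaped by replicate number) for the H-151, PBS and SR-717 groups, with the group mean and SD (n = 3) beside them. SR-717 replicate 1 is the highest point in all 10 panels, from 2.82 CPM for Cd8a to 19.7 for Nkg7.

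Among the CD3 subunits, Cd3e was at 0.987, 0.595 and 0.444 CPM in H-151 replicates 1 to 3, at 0.977, 0.680 and 0.558 in the PBS replicates and at 4.40, 0.657 and 0.695 in the SR-717 replicates. Apart from SR-717 replicate 1, all libraries lay below 1 CPM, and the groups overlapped. Cd3g was at 0.395, 0.793 and 0.776 CPM after H-151, 1.26, 0.510 and 0.669 after PBS and 4.76, 0.751 and 0.347 after SR-717. The SR-717 group thus held both the highest and the lowest of the 9 values. Cd3d, transcribed away from Cd3g, was at 0.987, 0.942 and 0.444 CPM after H-151, 1.26, 0.765 and 0.558 after PBS and 3.58, 0.939 and 0.289 after SR-717. Cd3d and Cd3g had their extremes in the same libraries, the highest in SR-717 replicate 1 and the lowest in SR-717 replicate 3.

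The receptor chain gene Trbc2 was at 1.23, 1.59 and 0.998 CPM under H-151, 2.76, 1.66 and 1.12 under PBS and 5.32, 1.88 and 0.868 under SR-717. Lck was at 3.65, 4.11 and 3.38 CPM under H-151, 3.97, 3.32 and 2.96 under PBS and 10.6, 4.74 and 3.30 under SR-717. Outside SR-717 replicate 1, Lck varied little, between 2.96 and 4.74 CPM. Of the coreceptors, Cd4 was at 12.6, 9.96 and 5.77 CPM under H-151, 14.4, 11 and 6.97 under PBS and 18.6, 13.2 and 10.2 under SR-717. Cd8a was at 0.494, 0.743 and 0.277 CPM under H-151, 0.575, 0.425 and 0.669 under PBS and 2.82, 1.36 and 0.347 under SR-717. For Cd8a, SR-717 replicate 2 was also above every H-151 and PBS library, while SR-717 replicate 3 was among the lowest.

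Of the members, the granule protein Gzmb spanned the widest range by fold. Gzmb, a granzyme that cuts after aspartate and triggers apoptosis, was at 1.53, 1.34 and 0.166 CPM under H-151, 4.37, 0.638 and 0.781 under PBS and 12.8, 1.78 and 1.33 under SR-717. Its lowest value, in H-151 replicate 3, rested on 3 reads, with an exact 95% Poisson interval of 0.619 to 8.77 reads, and its highest, in SR-717 replicate 1, on 251 reads (221 to 284). These intervals cover counting error only. PBS replicate 1, with 76 reads of Gzmb, was the next highest library. Gzma, a tryptase-like granzyme, was at 2.67, 2.18 and 2.77 CPM under H-151, 2.36, 2.89 and 1.78 under PBS and 12.2, 4.08 and 2.20 under SR-717. PBS replicate 1 was not raised for Gzma, and it was the only library in which the TPM of Gzma was below that of Gzmb, at a ratio of 0.882. The ratio was 26.9 in H-151 replicate 3 and 1.56 to 7.38 in the remaining libraries. Nkg7 was at 10.4, 10.5 and 3.27 CPM under H-151, 5.58, 7.78 and 2.29 under PBS and 19.7, 10.9 and 5.15 under SR-717.

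The libraries numbered 3 were often the lowest of their group. This held for 8 of 10 members after H-151 (37.3% of all genes), 7 after PBS (32.7%) and 9 after SR-717 (34.0%). Nkg7, Cd4, Lck, Cd3d and Trbc2 were lowest in replicate 3 in all 3 groups. The summed level of 10 neutrophil markers was lowest in replicate 3 of each group as well, at 1336, 588 and 2542 CPM under H-151, PBS and SR-717. The same held for the sum of 7 B cell markers, at 50.8, 45.9 and 42.8 CPM. For the sum of 8 macrophage markers it held under PBS and SR-717 but not under H-151. For Nkg7 the 3 lowest libraries came in the same order as for the neutrophil markers, PBS replicate 3, H-151 replicate 3 and SR-717 replicate 3. The part of neutrophils or of any other cell type in these values was not tested.

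Markers of other cell types moved with the members in SR-717 replicate 1. All 10 neutrophil markers were highest there, with a sum of 14272 CPM, against 588 to 3551 after PBS, 1336 to 4767 after H-151 and 2542 to 3906 in the other SR-717 libraries. Of 8 macrophage markers, 7 were highest there, with a sum of 2461 CPM against 1038 to 1691 in the other libraries. By contrast 0 of 7 B cell markers were highest there, and their sum of 47.6 CPM was 0.786 times the median of the other libraries. All 5 cartilage markers were lowest there, with a sum of 154 CPM against 1328 in PBS replicate 1 and 3750 to 14592 in the remaining 7. Col2a1, the main collagen of cartilage, was at 49.7 CPM in SR-717 replicate 1 and 863 in PBS replicate 1, against 2550 to 10629 elsewhere. Of 6 bone markers, 5 were lowest there, with a sum of 22166 CPM, 0.577 times the median of the other libraries. Of 7 lymph node stroma and follicle markers, 4 were highest there, although their sum of 82.9 CPM was within the 28.7 to 123 of the other libraries. The part of these differences in the members' levels was not tested.

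**Figure D2:**
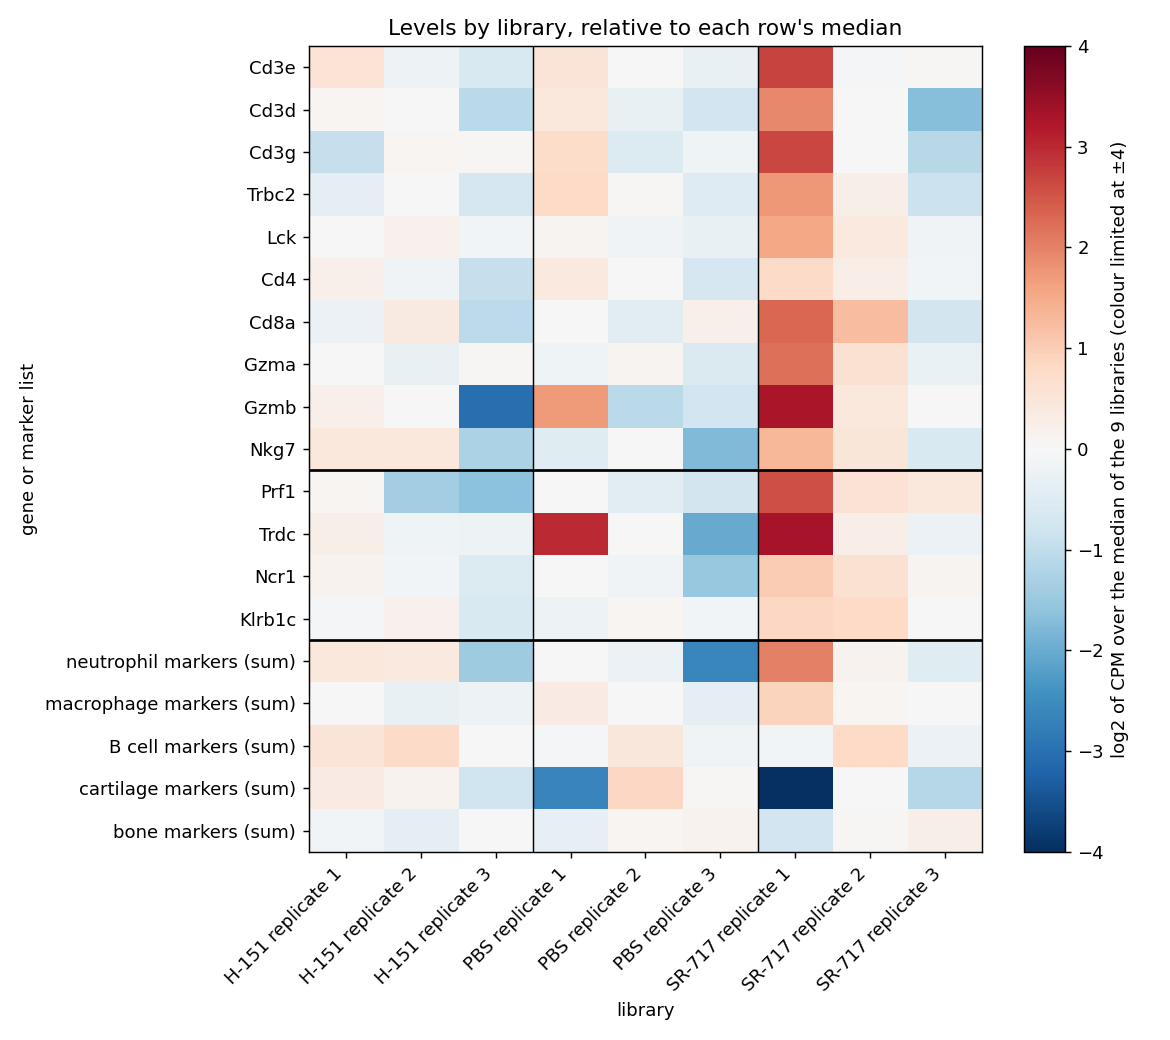
Colours give the log2 ratio of CPM in each library to the median of the 9 libraries, for the 10 members (top), 4 genes of the wider list (middle) and summed marker lists (bottom). SR-717 replicate 1 is above the median in all rows of the top and middle blocks and far below it for cartilage markers, whose sum was 154 CPM there.

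The NK receptor genes Ncr1 and Klrb1c, used as markers of mouse NK cells, were detected in all 9 libraries but sparsely. Ncr1 was at 0.279 to 0.888 CPM in the H-151 and PBS groups and at 1.64, 1.22 and 0.868 CPM in the SR-717 replicates. Klrb1c, which encodes NK1.1, was at 3.58, 3.52 and 2.03 CPM under SR-717 and at 1.33 to 2.28 in the other 6 libraries. For Ncr1 the lowest SR-717 library lay just under the highest of the other libraries, and for Klrb1c it lay within their range.

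Trdc, the constant segment of the gamma delta T cell receptor, and Ifng, the cytokine interferon gamma, were named after their values were seen. Trdc was at 1.04, 0.793 and 0.776 CPM under H-151, 7.13, 0.893 and 0.223 under PBS and 8.86, 1.08 and 0.752 under SR-717. It was thus high in PBS replicate 1 and SR-717 replicate 1, which were also the pair with the lowest cartilage markers, and at or below 1.08 CPM in the other 7 libraries. Ifng was counted at 22 reads (1.13 CPM) in SR-717 replicate 1 and at 0 to 2 reads in the other 8 libraries. It was at 0 in all 3 PBS libraries, where a count of 0 allows up to 3 reads, or 0.128 to 0.172 CPM.

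The first comparison asked how the members differed between mice given the STING agonist and mice given PBS. All 10 members had a higher mean under SR-717, but none passed the test. The mean CPM of Cd3e was 1.92 under SR-717 and 0.739 under PBS, a log2 fold change of 1.39 (SE 0.83, edgeR quasi-likelihood test). For Cd8a the log2 fold change was 1.45 (SE 0.73), for Gzma 1.41 (SE 0.65), for Gzmb 1.49 (SE 1.14) and for Nkg7 1.21 (SE 0.61). The others ranged from 0.39 for Cd4 (SE 0.35) to 1.28 for Cd3g (SE 0.98). The adjusted p of all 10 was 0.9999 (edgeR, Benjamini-Hochberg over 14070 genes). No member was past an adjusted p of 0.05, as was 0% of all genes, and 0 members had an unadjusted p under 0.05, against 97 of all genes. With a 1.5-fold change required as well, 0 members were higher, against 0.270% of all genes, and 0 lower, against 0.249%. Few genes of any kind reached an unadjusted p under 0.05 here or in the main fits below. The lack of calls therefore does not show equal levels. With DESeq2's Wald test 1 member, Gzma, had an unadjusted p under 0.05, with an adjusted p of 0.9998, and was past 1.5-fold, as were 0.661% of all genes in the higher direction. A single edgeR fit over all 9 libraries also called 1 member higher, again Gzma, against 0.819% of all genes. For 0 of 10 members were the groups of 3 separate, against 3.99% of all genes. SR-717 replicate 3 was below the highest PBS library for each of them.

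Without SR-717 replicate 1 the direction was no longer shared. The median log2 fold change of the 10 members was 1.24 with all 6 libraries, against 0.01 for all genes, and 0.01 without SR-717 replicate 1, against -0.02 for all genes. Of the members, 5 were then lower under SR-717, Cd3g at -0.53 (SE 0.64), Cd3d at -0.45 (SE 0.67), Trbc2 at -0.40 (SE 0.57), Gzmb at -0.29 (SE 0.92) and Cd3e at -0.11 (SE 0.47). The others stayed above 0, Cd8a at 0.65 (SE 0.67), Nkg7 at 0.64 (SE 0.57), Gzma at 0.44 (SE 0.41), Lck at 0.25 (SE 0.32) and Cd4 at 0.13 (SE 0.36). No member had an unadjusted p under 0.05 in that fit. Leaving out SR-717 replicate 3 instead put 4 members past that p and 1.5-fold, Cd8a, Gzma, Nkg7 and Lck, where 1.82% of all genes were called higher.

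In this comparison the deviations of same-numbered libraries correlated at 0.65, 0.341 and 0.139 for replicates 1 to 3. The first pair joins the libraries at 100 and 39 on the first principal component. Pairs of different numbers were not compared, so whether a number marks a true pairing was not tested. Using the number as a block changed 2 members. With the replicate number as a block, Gzmb had a log2 fold change of 1.31 (SE 0.30) and Nkg7 of 1.17 (SE 0.33), both at an unadjusted p under 0.05 and an adjusted p of 0.9991. This fit called 2.43% of all genes higher at p under 0.05 and 1.5-fold. The median over the members was 0.82 in the blocked fit. Without SR-717 replicate 1 the blocked value was 1.15 (SE 0.48) for Gzmb and 0.84 (SE 0.35) for Nkg7, neither at an unadjusted p under 0.05. The median over the members in that fit was 0.40, with 7 of 10 positive, Cd3e at 0.15 among them. In each pair of the same number, 5 members, Cd4, Lck, Gzma, Gzmb and Nkg7, were higher in the SR-717 library than in the PBS library. SR-717 replicate 1 was the highest library for all 10 members, so its pair could not come out otherwise. The share of all genes for which the same holds was not counted, so no result about the members is drawn from this.

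**Figure D3:**
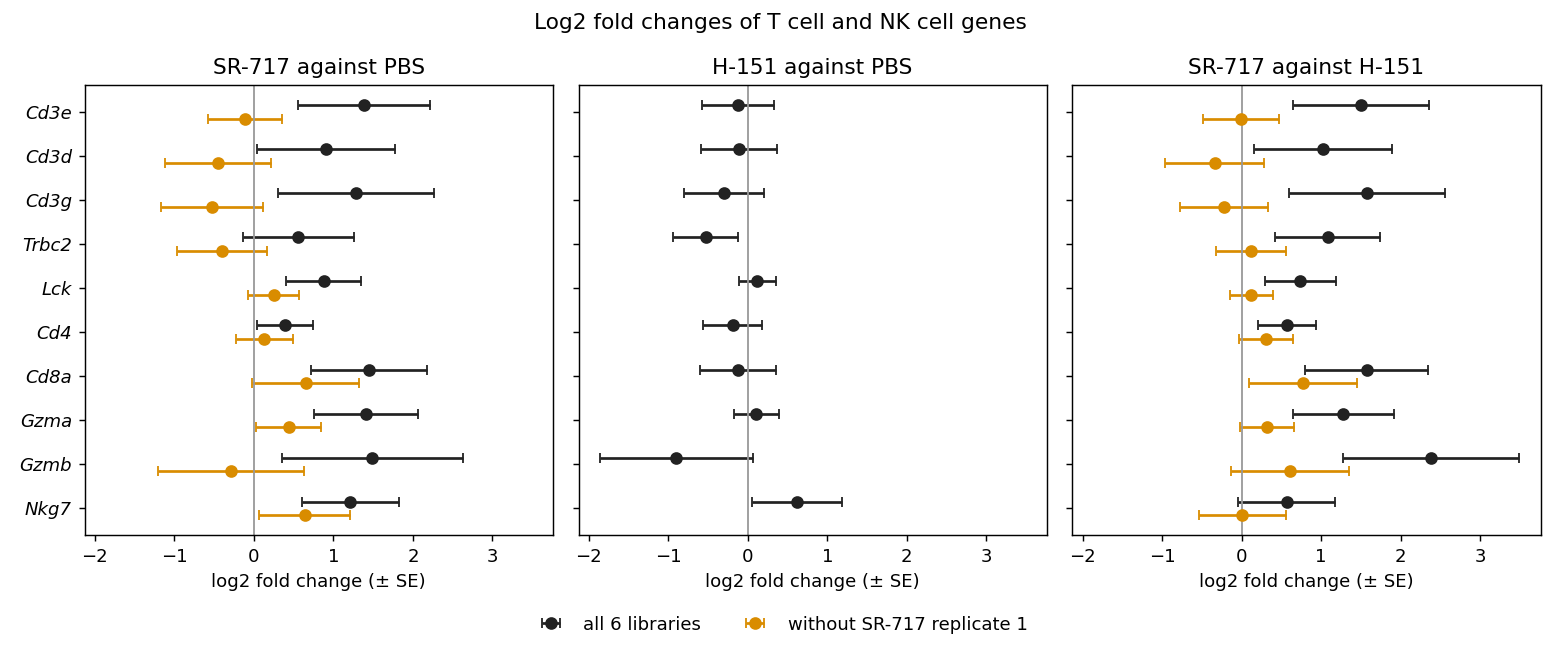
Log2 fold changes (points) with their SE (bars) for the 10 members in each comparison, from all 6 libraries (black) and without SR-717 replicate 1 (orange). In the SR-717 comparisons all black points are above 0, while 5 orange points against PBS and 3 against H-151 are below it.

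The second comparison set the STING inhibitor against PBS. The differences went in both directions, with 3 higher and 7 lower under H-151 and a median log2 fold change of -0.12, against -0.02 for all genes. Nkg7 was at a mean of 8.03 CPM under H-151 and 5.22 under PBS, a log2 fold change of 0.62 (SE 0.57). At the other end Gzmb was at 1.01 against 1.93 CPM, a log2 fold change of -0.90 (SE 0.96). Trbc2 was at -0.53 (SE 0.41) and the remaining 7 lay between -0.30 (Cd3g) and 0.12 (Lck). All adjusted p were 0.9999 (edgeR, 14085 genes), with 0 members and 0% of all genes past 0.05. No member had an unadjusted p under 0.05, by edgeR or by DESeq2, against 91 of all genes by edgeR. At p under 0.05 and 1.5-fold, 0.263% of all genes were higher, 0.163% lower and 0 members either. The groups overlapped for all 10 members, and were separate for 3.76% of all genes. The sign of Gzmb rested on PBS replicate 1, without which it was 0.53, and without that library 8 of 10 members were higher under H-151.

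Here the deviations of same-numbered libraries correlated at 0.304, 0.485 and 0.503, again without pairs of different numbers beside them. With the block, Nkg7 had a log2 fold change of 0.61 (SE 0.21), an unadjusted p under 0.05 and an adjusted p of 1, in a fit that called 1.43% of all genes higher. It was higher in the H-151 library of each numbered pair, by 10.4 against 5.58, 10.5 against 7.78 and 3.27 against 2.29 CPM. Nkg7 was picked by the blocked fit, which favours genes that differ alike in each pair. The share of all genes for which the same holds was not counted, so no result is drawn from this.

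In the third comparison, agonist against inhibitor, which shares its libraries with the other comparisons, all 10 members again had the higher mean under SR-717. Gzmb had a log2 fold change of 2.38 (SE 1.11), from 1.01 CPM under H-151 to 5.32 under SR-717. Cd3g followed at 1.58 (SE 0.98), Cd8a at 1.57 (SE 0.77) and Cd3e at 1.5 (SE 0.86), while Nkg7 and Cd4 were lowest at 0.57 each (SE 0.61 and 0.36). The adjusted p of each was 0.9957 (edgeR, 14151 genes). No member and 0% of all genes passed 0.05, and 0 members had p under 0.05, against 146 of all genes. Past p of 0.05 and 1.5-fold were 0 members, with 0.367% of all genes higher and 0.389% lower. By DESeq2 Gzmb and Gzma had an unadjusted p under 0.05, both at an adjusted p of 0.9995, in a test that called 1.04% of all genes higher past 1.5-fold. The single edgeR fit over 9 libraries called 2 members higher, Gzma and Cd8a, against 0.763% of all genes. The groups were separate for 0 of 10 members and for 5.05% of all genes.

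The median over the members was 1.18, against 0.02 for all genes, and 0.12 without SR-717 replicate 1, against -0.01. Without that library Cd3d (-0.34, SE 0.62), Cd3g (-0.22, SE 0.55) and Cd3e (-0.01, SE 0.48) were lower under SR-717, Nkg7 was at 0.01 (SE 0.55), and Cd8a was highest at 0.77 (SE 0.68). Without SR-717 replicate 3, 6 members were past an unadjusted p of 0.05 and 1.5-fold, Cd3g, Cd8a, Trbc2, Gzma, Gzmb and Lck, in a fit that called 3.79% of all genes higher.

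A wider list of T cell and NK cell genes was counted in the same way. Of 89 symbols written down 86 had a row in the table, in 6 classes, and 61 passed the filter over the 9 libraries. Of these 61, 67.2% were highest in SR-717 replicate 1, against 25.9% of all genes. In SR-717 against PBS 58 were tested, 47 had a positive and 11 a negative log2 fold change, and the median was 0.44. Without SR-717 replicate 1 the median was -0.05, with 26 of 55 positive. In SR-717 against H-151 the median was 0.56 with 47 of 58 positive, and 0.05 with 33 of 58 without that library. In H-151 against PBS it was -0.09, with 22 of 56 positive. No gene of the list passed an adjusted p of 0.05 in any comparison by edgeR or DESeq2. At an unadjusted p under 0.05 and 1.5-fold (edgeR), 1 was higher and 1 lower in SR-717 against PBS, beside 0.270% and 0.249% of all genes. In H-151 against PBS 1 was lower, beside 0.163%, and in SR-717 against H-151 1 was higher, beside 0.367%. With the replicate block 7 of 58 were higher in SR-717 against PBS, beside 2.43% of all genes, and 1 lower, beside 0.718%. The block gave 1 higher and 1 lower of 56 in H-151 against PBS, beside 1.43% and 0.440%.

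The medians of the classes were also taken without SR-717 replicate 1. The 7 tested NK cell receptors had a median log2 fold change against PBS of 0.81 with all libraries and 0.53 without it, and the 6 tested against H-151 of 0.83 and 0.55. The T cell receptor and CD3 class went from 0.40 to -0.26 against PBS, receptor signaling from 0.44 to -0.13 and the cytotoxic effectors from 0.46 to -0.23. The T cell surface class went from 0.61 to 0.10 and the lineage factors from 0.37 to 0.13. The differences between classes were not tested.

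**Figure D4:**
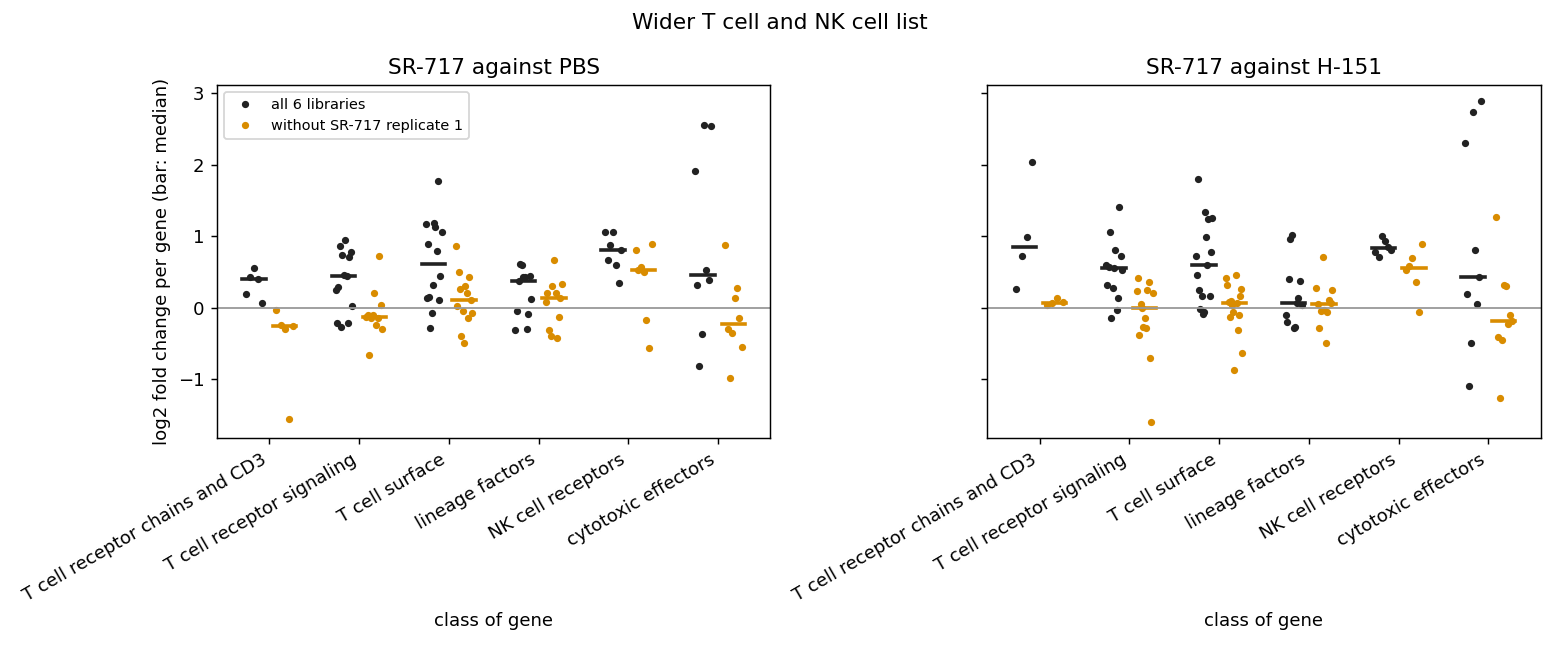
Log2 fold changes of the wider list by class (points are genes, bars are class medians) for SR-717 against PBS and against H-151, from all 6 libraries (black) and without SR-717 replicate 1 (orange). Without that library the NK cell receptor median is at 0.53 and 0.55, and those of the T cell surface class (0.10 and 0.06) and the lineage factors (0.13 and 0.05) are also above 0 in both panels.

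By p, the leading gene of the wider list in both SR-717 comparisons was Prf1, which encodes perforin, so its values were chosen by this test. It was at 1.09, 0.396 and 0.333 CPM under H-151, 1.03, 0.765 and 0.614 under PBS and 6.09, 1.55 and 1.39 under SR-717. Every SR-717 library was above every other library. Groups were separate, in either direction, for 3.99% of all genes against PBS and 5.05% against H-151. The share of genes highest in all 3 SR-717 libraries was not counted. Counts of Prf1 ran from 6 to 119 reads over the 9 libraries. The log2 fold change was 1.91 against PBS (SE 0.67, adjusted p = 0.9999, edgeR) and 2.30 against H-151 (SE 0.78, adjusted p = 0.9957). Without SR-717 replicate 1 these were 0.88 (SE 0.42) and 1.26 (SE 0.56), neither at an unadjusted p under 0.05.

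Next by p against PBS were Gzmd, a granzyme, and Klrk1, the activating receptor NKG2D. Gzmd was at 3.38, 2.06 and 3.01 CPM under SR-717 and 6.44, 4.17 and 4.52 under PBS, a log2 fold change of -0.82 (SE 0.32, adjusted p = 0.9999, edgeR). Unlike the members, Gzmd was not raised in SR-717 replicate 1, and without that library the value was -0.98. It belongs to a cluster of closely related granzyme genes, so the split of reads among them is uncertain. Klrk1 was at 3.74, 1.55 and 1.5 CPM under SR-717 and 1.49, 0.851 and 0.948 under PBS (log2 fold change 1.06, SE 0.49), and without SR-717 replicate 1 the value was 0.49 (SE 0.42). Against H-151 the next were the chemokine Ccl5 (2.73, SE 1.15) and Srgn, the core protein of granule proteoglycan (2.89, SE 1.33). In SR-717 replicate 1 Ccl5 was at 54.2 CPM and Srgn at 1508, against 1.90 to 5.86 and 38.1 to 193 in the other 8 libraries. Without that library the log2 fold change was 0.31 (SE 0.39) for Ccl5 and -0.19 (SE 0.33) for Srgn. In H-151 against PBS the lowest p were those of Klra7, an NK receptor of a multigene family (-1.47, SE 0.61), Lat, the adaptor downstream of the T cell receptor (-0.53, SE 0.29), and the transcription factor Runx3 (-0.25, SE 0.14), all at an adjusted p of 0.9999 (edgeR). Klra7 was sparse, at 0.345, 0.0496 and 0.222 CPM under H-151 and 0.632, 0.553 and 0.558 under PBS. It passed the low-count filter through the PBS libraries, where it was higher, and failed it in SR-717 against H-151. Its place in this order is therefore no support for a difference.

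The members resembled each other over the libraries. Each was correlated with the mean standardised profile of the other 9 members over 9 libraries, with Pearson r from 0.76 (Nkg7) to 0.96 (Lck). Over the 8 libraries without SR-717 replicate 1 r ranged from 0.31 (Cd3g) and 0.39 (Gzma) to 0.83 (Cd3d, Cd4 and Trbc2). Among 14223 genes outside both lists, those most like the mean member profile were Ncoa3 (r = 0.986, rho = 0.933), a nuclear receptor coactivator, Mctp2 (0.985, 0.917), Icosl (0.982, 0.817), the ligand of the T cell costimulator ICOS, Il21r (0.980, 0.917), the receptor of interleukin 21, and Ezr (0.979, 0.867), which links the membrane to actin. All 5 were highest in SR-717 replicate 1, Il21r at 24.0 CPM against 3.72 to 8.97 elsewhere and Ncoa3 at 81.7 against 42.8 to 56.0. Ranked over 8 libraries without it the 5 nearest were Anp32b, Mctp2, Acpp, Ncoa3 and Prr11, of which 2 were shared. These r are descriptions over 9 libraries that share 1 outlying library, and carry no p.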

How the data were processed

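Callus RNA was poly(A)-selected and sequenced as strand-specific libraries, per the labels and the study's methods, although the labels' extraction text speaks of cell lines. The authors deposited a table of expected counts per gene, not normalized, and of TPM values scaled by length. mm10 is the build in the submitters' processing notes. The aligner and counter are not given in the sources used here. Fractional values made up 8.91% of the counts, and rounding to whole reads came first. Genes were filtered with filterByExpr (minimum count 10, minimum total 15), scaled by TMM and tested with edgeR 4.0.16 (glmQLFit and glmQLFTest, R 4.3.3) on the 6 libraries of a comparison, with Benjamini-Hochberg adjustment over all genes tested. CPM used TMM factors over 9 libraries, and log2 CPM a prior count of 2. DESeq2 1.42.0, other size factors, no filter, 1 fit of 9 libraries, a replicate block and each library left out were alternatives. The fits were tested on simulated data.

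Groups came from the labels. The members and lists were chosen with earlier results of these data known. Named genes were the 10 members, the 3 wider-list genes of lowest p per comparison and the 5 genes most like the members. Ncr1, Klrb1c and Col2a1 were named as defining markers, and Trdc, Ifng and Cd79a after their values were seen. The symbols Tcrg-C1, Tcrg-C2 and Tcrg-C4 had no row. The gamma chain constant genes were in the table, and in the wider list, under the symbols Trgc1, Trgc2 and Trgc4. No pair of libraries was a copy, the smallest chi-square per gene being 24.7 over 36 pairs. The replicate numbers of the labels were checked for pairing by the correlation of deviations from the group means in each numbered pair. This was 0.65, 0.341 and 0.139 in SR-717 against PBS and 0.304, 0.485 and 0.503 in H-151 against PBS. In SR-717 against H-151 it was 0.342, 0.0623 and 0.0792. The main tests used no pairing, and the block was an alternative in each comparison. Pairs of different numbers were not compared, so these values cannot show whether a number marks a true pairing. The labels do not say what a number shares.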

Additional observations from a re-analysis of the deposited data

How the results depend on the processing

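In every alternative run, 0 members passed an adjusted p of 0.05. The smallest adjusted p over the alternatives was 0.9964 in SR-717 against PBS, 0.8821 in H-151 against PBS and 0.6939 in SR-717 against H-151. The number of members at p under 0.05 and 1.5-fold was 0 in each comparison. Against PBS it was 1 for SR-717 with DESeq2 and with 9 libraries in 1 fit, and 2 with the replicate block, and for H-151 it was 1 with the block. In SR-717 against H-151 it was 2 with DESeq2, with 9 libraries in 1 fit and with the block (Gzmb and Cd4), where pairs 2 and 3 did not reach a correlation of 0.1. Of all genes, DESeq2, the fit of 9 libraries and the block called 93, 117 and 342 higher in SR-717 against PBS, and 147, 109 and 88 in SR-717 against H-151. The block with SR-717 replicate 1 left out was chosen after seeing the data and gave 0 in both SR-717 comparisons. Leaving out 1 library gave 0 to 4 against PBS and 0 to 6 against H-151 for SR-717. The median over the members then ranged from 0.01 to 1.67 and from 0.12 to 1.59, each lowest without SR-717 replicate 1 and highest without SR-717 replicate 3.

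Signs changed in no other kind of alternative than leaving out a library. The log2 fold changes with 1 library left out ranged, in SR-717 against PBS, from -0.11 to 1.80 for Cd3e, -0.45 to 1.40 for Cd3d, -0.53 to 1.77 for Cd3g, -0.40 to 0.98 for Trbc2 and -0.29 to 2.91 for Gzmb. In H-151 against PBS they ranged from -0.49 to 0.13 for Cd3e, -0.33 to 0.26 for Cd3d, -0.55 to 0.16 for Cd3g, -0.45 to 0.08 for Cd4, -0.51 to 0.15 for Cd8a, -0.05 to 0.30 for Gzma and -1.32 to 0.53 for Gzmb. In SR-717 against H-151 they ranged from -0.01 to 1.91 for Cd3e, -0.34 to 1.5 for Cd3d and -0.22 to 2.07 for Cd3g. With the block and without SR-717 replicate 1, Cd3d, Cd3g and Trbc2 were at -0.18, -0.10 and -0.04 against PBS, and Cd3d and Cd3g at -0.23 and -0.55 against H-151. The cause was not tested. Group levels relative to PBS moved by less than 1 SD with TPM in 20 of 20 cases. At 5 to 29 reads per library, counting error alone limits Cd3e, Cd3d, Cd3g and Cd8a outside SR-717 replicate 1.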

Other observations

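A B cell gene did not follow the T cell genes. Cd79a, a signaling subunit of the B cell receptor, was at 1.55 CPM in PBS replicate 1 and 2.00 in SR-717 replicate 1, the 2 libraries of high Trdc, and at 2.68 to 20.9 CPM in the other 7. This gene was chosen after its values were seen, and no test was made.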
